A study of Mus musculus with 12 samples.

Results

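The transcripts of heat shock proteins and DnaJ co-chaperones were compared between the hippocampus of adult mice exposed to ethanol before birth and that of Control mice. Members were the probes whose platform gene symbol begins with Hspa, Hspb, Hspd, Hspe, Hsph, Hsp90, Dnaja, Dnajb or Dnajc. This rule took 135 of 45281 probes and 68 genes, and 82 of these probes, naming 53 genes, were detected on at least 6 of 12 arrays. The rule also took Hspbp1, an exchange factor of Hsp70, and Hspbap1, a protein that binds heat shock protein, through the letters of their names. Hsp90ab1, the constitutive cytosolic Hsp90, has no probe of its own name here and was not analysed here.

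The EtOH group held 6 arrays of females of the C57BL/6J strain, 12 weeks old, with prenatal alcohol exposure. The labels give the exposure as free drinking of 10% v/v ethanol by the dam, with 0.5 days post-coitum as its start and 8.5 as its end. The Control group held 6 arrays of females of the same strain and age. The same text on maternal drinking stands on every Control sample as well, so the groups follow the titles and the treatment label. Litters are not told apart in the labels, so p-values treat each array as independent and measure only the spread between arrays.

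Heat shock proteins are molecular chaperones that bind unfolded protein. Hsp70 works in cycles of ATP, which J-domain proteins of the Dnaj families start and exchange factors such as the Hsp110 proteins end, and it hands some clients on to Hsp90 or to chaperonins. Many of these genes are switched on by heat shock factors when unfolded protein builds up in the cytosol, and another set, with Hspa5 at its centre, by the unfolded protein response of the endoplasmic reticulum. Neurons depend on several of them at rest, since auxilin (Dnajc6) with Hsc70 (Hspa8) strips clathrin from vesicles and cysteine string protein (Dnajc5) keeps release proteins folded at the synapse.

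The arrays had median raw intensities from 126 to 146.9, with 19748 to 20858 detected probes each. Correlations between arrays ran from 0.983 to 0.994, and none duplicated another. The sample titles carry 1 of 2 long numbers, which no label explains and which are taken here as the chip. By them the arrays fall on 2 chips, with 4 EtOH and 2 Control arrays on chip 1 and 2 EtOH and 4 Control arrays on chip 2. Kept hippocampal neuron markers (Slc17a7, Wfs1, Prox1 and Neurod6, 4 of 6 on the list) had a mean log2 level of 9.05 to 9.36 in EtOH and 9.15 to 9.45 in Control. Ttr of the choroid plexus was high on 4 arrays (EtOH 2 and 4, Control 2 and 4), at 15.39 to 15.47, and at 7.92 to 11.57 on the other 8. The kept choroid plexus markers (5 of 10) had a mean log2 level of 6.61 to 11.46 in EtOH and 6.58 to 11.60 in Control. Markers of ependyma (Rsph1 and Foxj1, 2 of 4) were at 7.28 to 7.80 on the 4 arrays and 6.54 to 6.95 on the other 8. Meninges markers (5 of 5, among them Igf2 and Dcn) were at 8.92 to 9.29 on the 4 arrays and 7.99 to 8.79 on the other 8. Without the 4 arrays, 30 of the 52 named chaperone probes had a difference between EtOH and Control that moved by over 1.5 times or changed sign. In 11 of these the difference reached 0.1 in size with or without the 4 arrays, and those are given both ways. Small differences can pass this ratio too, as on Hspa8 probe ILMN_1249586, at -0.011 with and -0.007 without the 4 arrays. Values without the 4 arrays rest on the other 8 only, and the share of all probes that moved so is not given here. The part of other tissue in these moves was not tested.

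No chaperone transcript passed the test between EtOH and Control. Levels below are log2 normalized intensities, and differences are EtOH minus Control in log2 units, adjusted for the chip, with 95% intervals. Group ranges and means are not adjusted, and for 8 of the 52 named probes the adjusted difference has the opposite sign of the plain difference of means. At an adjusted p under 0.05, limma called 0 of 82 chaperone probes, against 0 of 20172 probes (0%) in the whole table. The lowest adjusted p among chaperones was 1.00. Before adjustment, 1 of 82 chaperone probes (1.22%), a probe of Hspa4l, had a p under 0.05 by limma, against 3.48% of all probes (1.75% higher and 1.73% lower in EtOH). No chaperone probe had groups that did not overlap, against 0.134% of all probes (0.0644% with EtOH above and 0.0694% with EtOH below).

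Differences of the 82 probes were small in both directions. Among them 34 were higher and 48 lower in EtOH, against 51.2% higher over all probes. Their median difference was -0.02, against 0.00 (0.0025) for all probes, and it was 0.0025 without EtOH 5. In 61 probes the difference was under 0.1 in size, and in 6 it was over 0.2. In 5 of the 82 probes all 6 EtOH arrays lay above the Control median, and in 6 all lay below. These positions are not adjusted for chip, and the share over all probes is not given here. Where they are printed below, they are descriptions only. The intervals had a median half-width of 0.195, and for 75 probes the whole interval lay between -0.5 and 0.5. For 37 probes it lay between -0.25 and 0.25, and larger differences remain possible for the others. These are RNA levels of whole tissue, in which fewer cells of a type and less RNA per cell cannot be told apart.

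**Figure D1:**
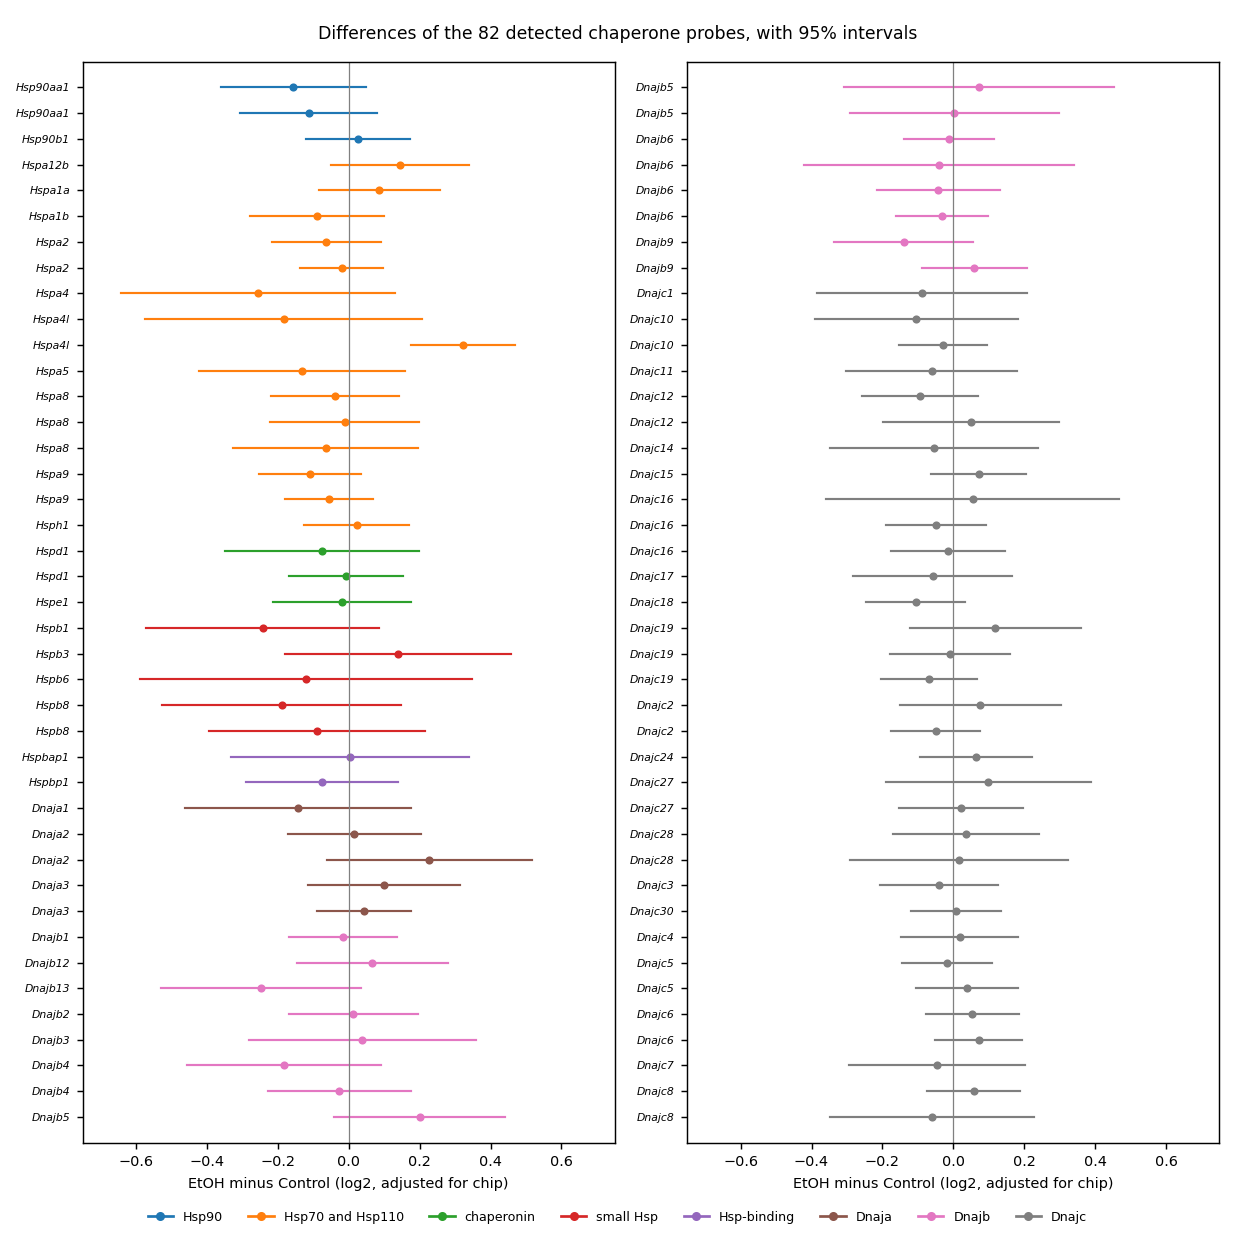
Difference between EtOH and Control (log2, adjusted for chip) for each of the 82 detected chaperone probes, with bars for the 95% interval and colours for the families. A probe of Hspa4l, at 0.32, is the one whose interval does not cross 0 by limma at an unadjusted p under 0.05.

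Hspa4l, an Hsp110-type exchange factor of Hsp70, had the smallest p. On probe ILMN_1240779 its level ran from 6.65 to 7.04 in EtOH (median 6.99) and from 6.30 to 6.87 in Control (median 6.43). All 6 EtOH arrays lay above the Control median, while Control 1 lay above EtOH 5 and EtOH 6, so the groups overlapped. The means were 6.92 ± 0.15 in EtOH and 6.50 ± 0.20 in Control (SD, n = 6 each). The difference was 0.32 (0.18 to 0.47), with an unadjusted p of 0.000402 and an adjusted p of 1.00 by limma. Within chip 1 it was 0.29 and within chip 2 it was 0.36. Without the 4 arrays with high Ttr it was 0.29. The probe was designed on another transcript record than the other Hspa4l probes, and which isoforms it reads was not checked here. This probe also read lower on chip 2 than on chip 1 by a difference of -0.29 (adjusted p for chip 0.068 by limma).

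The second detected probe of Hspa4l, ILMN_1230843, gave another picture. Its level ran from 5.10 to 6.04 in EtOH (median 5.76) and from 5.29 to 6.15 in Control (median 5.88), with wide overlap. It was detected on 11 of 12 arrays, and its difference was -0.18 (-0.57 to 0.21; unadjusted p 0.328 by limma). Within chip 1 the difference was 0.04 and within chip 2 it was -0.41, and without EtOH 5 it was -0.01. Without the 4 arrays with high Ttr it was -0.36. The 2 probes differed from each other by -0.51 in their EtOH minus Control differences (-0.93 to -0.08), with an unadjusted p of 0.0221 and an adjusted p of 1.00 by limma over 8868 probe pairs. Across the 12 arrays they correlated at r = -0.05, given as a description of arrays that share groups and chips. The third probe of the gene was detected on 0 arrays.

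**Figure D2:**
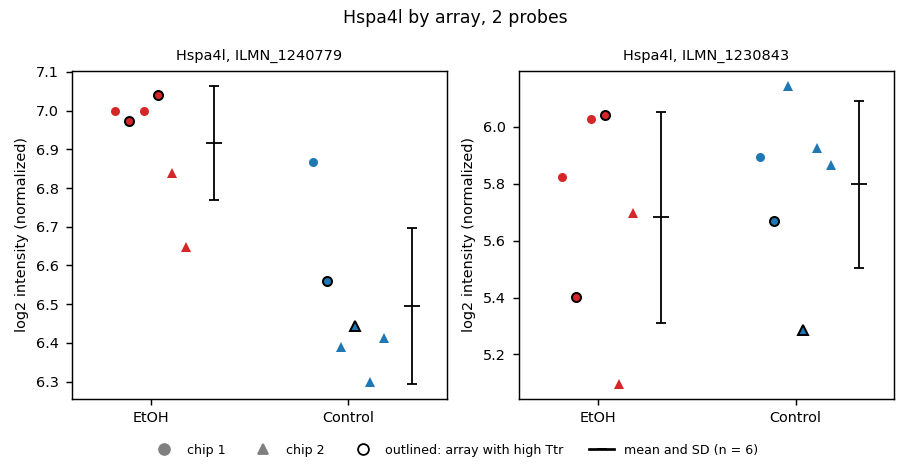
Log2 level of Hspa4l by array on its 2 detected probes, with EtOH left of Control, circles for chip 1, triangles for chip 2 and bars for mean and SD (n = 6). On ILMN_1240779 the EtOH arrays sit between 6.65 and 7.04 and the Control arrays between 6.30 and 6.87, while on ILMN_1230843 the groups lie in one range.

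The other Hsp70 and Hsp110 genes gave no call. Of 15 kept probes of this family 4 were higher and 11 lower in EtOH, with a median difference of -0.05. Hspa8, the constitutive Hsc70, ran from 13.99 to 14.45 in EtOH (median 14.25) and from 14.18 to 14.35 in Control (median 14.26) on its brightest probe, and the EtOH arrays spanned the whole Control range. Its 3 probes differed by -0.06, -0.04 and -0.01. Hsph1, the heat-inducible Hsp110, ran from 12.34 to 12.59 in EtOH (median 12.57) and from 12.41 to 12.65 in Control (median 12.49), a difference of 0.02 (-0.13 to 0.17). Hspa4, another exchange factor, ran from 5.11 to 6.37 in EtOH (median 5.59) and from 5.46 to 6.40 in Control (median 6.07). Its difference of -0.25 was the lowest among members, with an interval from -0.64 to 0.13, and it was detected on 11 arrays.

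Hspa1a and Hspa1b, the classic stress-inducible Hsp70 genes, encode nearly the same protein from neighbouring copies. Hspa1a ran from 7.50 to 7.81 in EtOH (median 7.62) and from 7.26 to 7.76 in Control (median 7.49). All 6 EtOH arrays lay above the Control median, and the difference was 0.09 (-0.08 to 0.26), or 0.16 without the 4 arrays with high Ttr. Hspa1b ran from 6.80 to 7.16 in EtOH (median 7.14) and from 6.98 to 7.36 in Control (median 7.22). Here no EtOH array lay above the Control median, and the difference was -0.09 (-0.28 to 0.10), which changed sign under 1 of 26 alternatives. Neither passed limma's test, and the contrast between the copies was not tested. Which copy each probe measured is uncertain, since the probe sequences were not used here. The promoters of the copies are printed from RefSeq (build GRCm38.p6), 5′ to 3′ on the strand of the gene, for the 250 bases before the start. They differ at 3 of 250 bases, which are in capitals.
Hspa1a, chr17:34972157-34972406, minus strand: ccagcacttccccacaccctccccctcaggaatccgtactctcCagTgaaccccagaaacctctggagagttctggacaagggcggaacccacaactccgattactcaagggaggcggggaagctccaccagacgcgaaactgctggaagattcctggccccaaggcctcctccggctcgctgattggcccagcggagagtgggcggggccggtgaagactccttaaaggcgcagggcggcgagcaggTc
Hspa1b, chr17:34959239-34959488, minus strand: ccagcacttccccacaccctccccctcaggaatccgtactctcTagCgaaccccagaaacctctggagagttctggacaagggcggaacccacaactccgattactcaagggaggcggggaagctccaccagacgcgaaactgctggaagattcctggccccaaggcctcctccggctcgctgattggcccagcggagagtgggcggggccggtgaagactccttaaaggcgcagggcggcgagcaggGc

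Among organelle Hsp70 genes, Hspa9 (mortalin of mitochondria) ran from 10.81 to 11.12 in EtOH (median 10.97) and from 10.92 to 11.15 in Control (median 11.04) on 1 probe. Its 2 probes differed by -0.11 and -0.05, and their groups overlapped. Hspa5 (BiP of the endoplasmic reticulum) ran from 4.99 to 5.44 in EtOH (median 5.33) and from 4.99 to 5.77 in Control (median 5.29). It was detected on 4 EtOH and 3 Control arrays, so its probe lay near background, and its difference was -0.13 (-0.42 to 0.16). Hspa12b, an Hsp70 relative known from endothelium, ran from 6.59 to 6.81 in EtOH (median 6.67) and from 6.28 to 6.74 in Control (median 6.58). All 6 EtOH arrays lay above the Control median, and the difference was 0.14 (-0.05 to 0.34; unadjusted p 0.131 by limma). Hspa12a, Hspa13, Hspa14 and Hspa1l had no kept probe.

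Hsp90aa1, the inducible cytosolic Hsp90, had lower values in EtOH on both probes without passing the test. The brighter probe ran from 10.47 to 11.08 in EtOH (median 10.84) and from 10.69 to 11.05 in Control (median 10.93), a difference of -0.16 (-0.36 to 0.05). The other ran from 7.20 to 7.41 in EtOH (median 7.32) and from 7.20 to 7.71 in Control (median 7.52), a difference of -0.11 (-0.31 to 0.08). On the second probe no EtOH array lay above the Control median, and on both the groups overlapped. Without the 4 arrays with high Ttr, both probes differed by -0.23, with limma's adjusted p at 1.00. Hsp90b1, the Hsp90 of the endoplasmic reticulum (GRP94), ran from 11.29 to 11.66 in EtOH (median 11.58) and from 11.32 to 11.63 in Control (median 11.41), a difference of 0.03.

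The mitochondrial chaperonin genes Hspd1 (Hsp60) and Hspe1 (Hsp10) fold imported proteins as a chamber and its lid. Hspd1 ran from 10.97 to 11.22 in EtOH (median 11.10) and from 10.99 to 11.24 in Control (median 11.13) on its brighter probe. Hspe1 ran from 8.57 to 8.96 in EtOH (median 8.81) and from 8.50 to 9.12 in Control (median 8.93). The groups covered nearly one range for both genes. The differences were -0.08 and -0.01 for the Hspd1 probes and -0.02 for Hspe1.

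**Figure D3:**
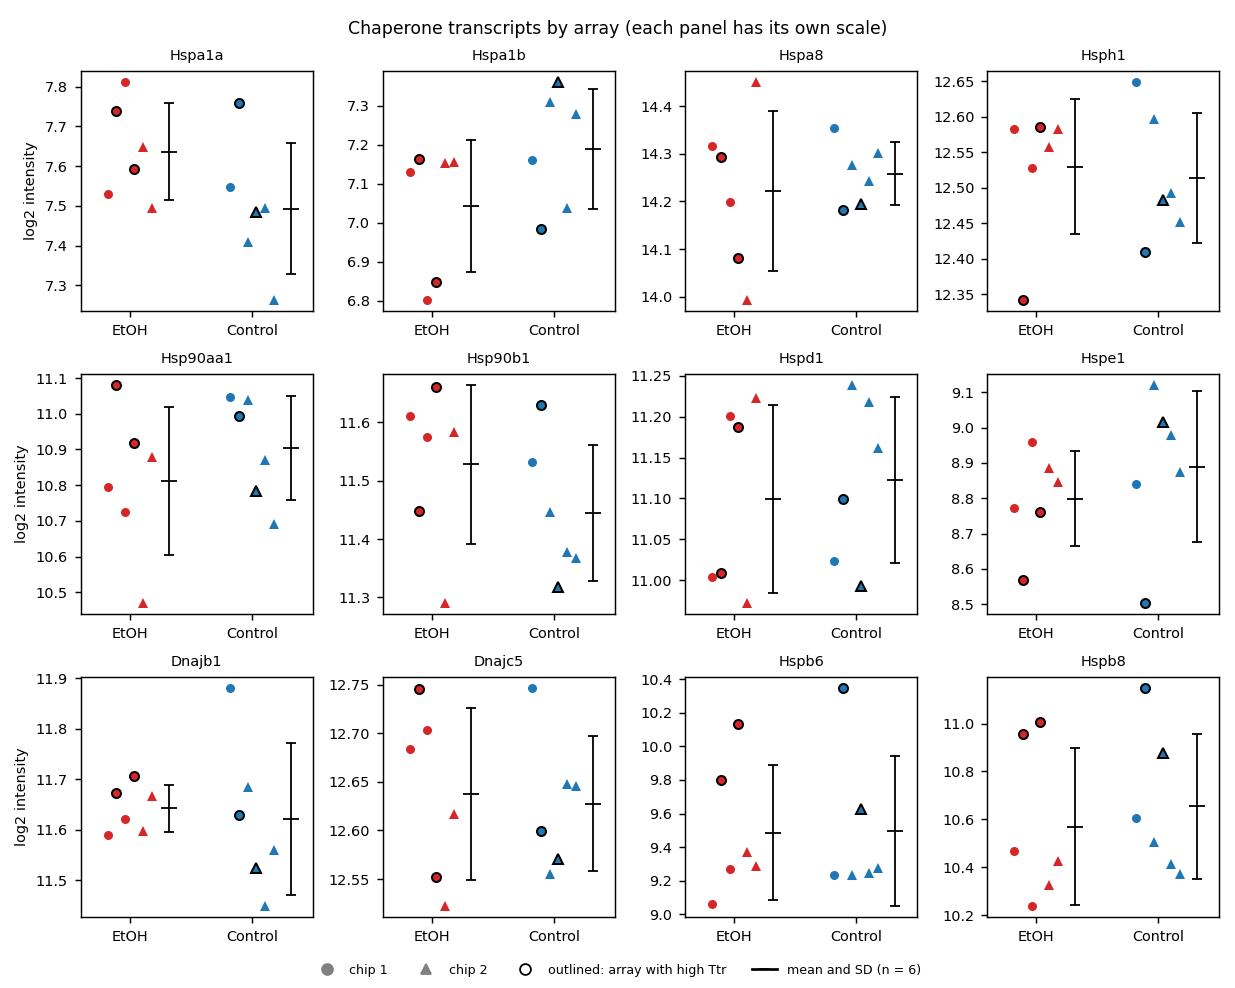
Log2 level by array of 12 chaperone transcripts, 1 probe each, with EtOH left of Control, outlined points for the 4 arrays with high Ttr and bars for mean and SD (n = 6). Each panel has its own scale. The groups overlap in every panel, and in the Hspb6 and Hspb8 panels the outlined arrays are the highest of both groups.

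Small heat shock proteins hold unfolded proteins without ATP, and they were the most variable of these families. Their 5 kept probes had residual spreads at a median of the 88th percentile of all probes, against the 46th for all chaperone probes. Hspb1 (Hsp25 of the mouse) ran from 6.48 to 7.23 in EtOH (median 6.84) and from 6.79 to 7.31 in Control (median 7.10), a difference of -0.24 (-0.57 to 0.09). Hspb8 (Hsp22) ran from 10.24 to 11.01 in EtOH (median 10.45) and from 10.37 to 11.15 in Control (median 10.56) on its brighter probe. The Hspb8 probes differed by -0.19 and -0.09, and correlated at r = 0.86 across arrays. Hspb6 (Hsp20) ran from 9.06 to 10.13 in EtOH (median 9.33) and from 9.23 to 10.35 in Control (median 9.26), a difference of -0.12 (-0.59 to 0.35). None passed limma's test, and the groups overlapped for each.

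The spread of Hspb6 and Hspb8 lay along the arrays with high Ttr, which were also those with high ependyma and meninges markers. Hspb6 was at 9.63 to 10.35 on these 4 arrays and at 9.06 to 9.37 on the other 8. Hspb8 was at 10.88 to 11.15 and 10.24 to 10.61 on 1 probe, and at 7.71 to 7.94 and 7.22 to 7.67 on the other. A probe of Dnaja2 (ILMN_3003324) went the opposite way, at 6.15 to 6.20 on the 4 arrays and 6.23 to 6.81 on the other 8. These were 4 of 82 chaperone probes (4.88%) whose values did not overlap between the 4 and the 8 arrays, against 2.27% of all probes. The part of choroid plexus, ependyma or meninges in these levels was not tested. Ttr was read on the same arrays, the sets hold 2 arrays of each group among the 4, and no test was made of them. Without the 4 arrays the EtOH minus Control differences were 0.03 for Hspb6, and -0.13 and 0.03 for the probes of Hspb8.

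DnaJ proteins of class A resemble the bacterial DnaJ throughout. Of 5 kept probes 4 were higher and 1 was lower in EtOH, with a median difference of 0.04. Dnaja2 probe ILMN_3003324 ran from 6.15 to 6.81 in EtOH (median 6.49) and from 6.18 to 6.80 in Control (median 6.28), a difference of 0.23 (-0.06 to 0.52), and 0.27 without the 4 arrays. Its other probe differed by 0.02 (-0.17 to 0.20). Dnaja1, which the heat shock response induces, ran from 5.08 to 5.99 in EtOH (median 5.72) and from 5.41 to 6.38 in Control (median 5.88), a difference of -0.14, or -0.29 without the 4 arrays. It was detected on 11 arrays, at low levels. Dnaja3, the mitochondrial Tid1, differed by 0.10 on ILMN_1244825 (0.03 without the 4 arrays), where EtOH arrays ran from 5.66 to 6.17 and Control arrays from 5.44 to 5.86. Its brighter kept probe differed by 0.04.

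Class B proteins keep the J domain and a glycine-rich stretch. Of 16 kept probes 7 were higher and 9 lower in EtOH. Dnajb1 (Hsp40), the main inducible partner of Hsp70, ran from 11.59 to 11.71 in EtOH (median 11.64) and from 11.45 to 11.88 in Control (median 11.59), a difference of -0.02 (-0.17 to 0.14). The EtOH arrays lay inside the Control range. Dnajb6, which holds back aggregation of polyglutamine proteins, differed by -0.04 to -0.01 on its 4 probes. Probe ILMN_2426446 of Dnajb6 differed by -0.17 and ILMN_3060442 by -0.10 without the 4 arrays with high Ttr. The first of these was detected on 3 EtOH and 3 Control arrays and lay near background. Dnajb5 differed by 0.20 on ILMN_1256479 (-0.04 to 0.44), which was detected on 11 arrays and ran from 5.45 to 5.85 in EtOH and from 5.11 to 5.70 in Control. Its other probes differed by 0.07 and 0.00 (0.0028). Dnajb4 differed by -0.18 and -0.03 on its probes. The Dnajb5 probe differed by 0.10 and the first Dnajb4 probe by -0.07 without the 4 arrays.

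Dnajb13, known from sperm and motile cilia, ran from 5.97 to 6.70 in EtOH (median 6.14) and from 6.06 to 6.79 in Control (median 6.33). Its difference was -0.25 (-0.53 to 0.03; unadjusted p 0.0799 by limma), and -0.19 without the 4 arrays with high Ttr. On those 4 arrays it was at 6.30 to 6.79, against 5.97 to 6.33 on the other 8. Ependyma markers, given above, were high on these 4 arrays too, and the part of these cells in the difference was not tested.

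Class C proteins share little beyond the J domain, and each takes Hsp70 to its own task. Of 33 kept probes 16 were higher and 17 lower, between -0.11 and 0.12. Dnajc5 ran from 12.52 to 12.75 in EtOH (median 12.65) and from 12.56 to 12.75 in Control (median 12.62) on 1 probe, and its probes differed by -0.02 and 0.04. Dnajc6 ran from 13.51 to 13.75 in EtOH (median 13.59) and from 13.37 to 13.69 in Control (median 13.50) on probe ILMN_1230224. All 6 EtOH arrays lay above the Control median on this probe, but not on the other. Both Dnajc6 differences were small, at 0.05 (-0.08 to 0.18) and 0.07 (-0.05 to 0.19). For both synaptic co-chaperones limma called no difference, and every interval lay between -0.25 and 0.25.

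Dnajc18 ran from 7.12 to 7.39 in EtOH (median 7.30) and from 7.30 to 7.53 in Control (median 7.42), with no EtOH array above the Control median. Its difference was -0.11 (-0.25 to 0.03; unadjusted p 0.124 by limma). Dnajc15, a mitochondrial J protein, ran from 10.56 to 10.83 in EtOH (median 10.71) and from 10.57 to 10.68 in Control (median 10.59), a difference of 0.07. Dnajc12, which works with aromatic amino acid hydroxylases, differed by -0.09, and Dnajc8 by 0.06, on the probes with their smallest p. The other kept probe of each had the opposite sign, at 0.05 for Dnajc12 and -0.06 for Dnajc8. Dnajc16 probe ILMN_1247873 was among the 3 with the largest spread, from 5.04 to 6.26 in EtOH and from 5.16 to 5.98 in Control, a difference of 0.05. It was detected on 10 arrays, and the brighter probes of the gene differed by -0.05 and -0.01.

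Dnajc3 (p58IPK), which restrains an eIF2 alpha kinase, differed more between the chips than between the groups. It ran from 8.96 to 9.49 in EtOH (median 9.19) and from 8.79 to 9.44 in Control (median 9.03), a difference of -0.04 (-0.21 to 0.13). Between chips it read lower on chip 2, with a difference of -0.38 and an adjusted p of 0.049 by limma. It was the 1 chaperone probe (1.22%) called for chip, against 0.773% of all probes, and it was not called in any fit that left out 1 of the 12 arrays.

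The 30 kept probes that the naming rule did not take had differences from -0.10 to 0.14, with 16 higher and 14 lower, and a smallest unadjusted p of 0.363 by limma. Of the 135 member probes, 73 were detected on all 12 arrays, 9 on 6 to 11, 9 on 1 to 5 and 44 on 0. Besides the Hsp70 genes above, Dnajb7, Dnajb8, Dnajb14, Dnajc5b, Dnajc5g, Dnajc9, Dnajc25, Hspb2, Hspb7, Hspb9 and Hspb11 had no kept probe.

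Several genes had probes that went opposite ways. Between detected probes of 1 gene, limma called 0 of 36 chaperone pairs different in their EtOH minus Control difference, against 0 of 8868 pairs (0%) of all genes. At an unadjusted p under 0.05 it gave 1 pair (2.78%), that of Hspa4l, against 3.94% of all pairs. Signs were opposite in 10 of 36 chaperone pairs (27.8%), against 43.3% of all pairs. Members' pairs correlated at a median r of 0.20 across arrays and all pairs at 0.24, given as descriptions.

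Dnajb9 (ERdj4), a co-chaperone of BiP, had the next smallest p between probes. Its brighter probe ran from 10.04 to 10.20 in EtOH and from 9.93 to 10.20 in Control, a difference of 0.06 (-0.09 to 0.21), or 0.13 without the 4 arrays with high Ttr. The other ran from 6.99 to 7.42 in EtOH and from 7.14 to 7.75 in Control, a difference of -0.14 (-0.34 to 0.06). No EtOH array lay above the Control median on the second, and 5 did on the first. Dnajc19, of the mitochondrial import motor, differed by 0.12, -0.01 and -0.07 on its 3 probes. Dnajc2, a partner of the ribosome, differed by 0.08 and -0.05. All their groups overlapped, and the unadjusted p for the pairs of these genes that differed most ran from 0.0717 for Dnajb9 to 0.291 for Dnajc2 by limma.

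**Figure D4:**
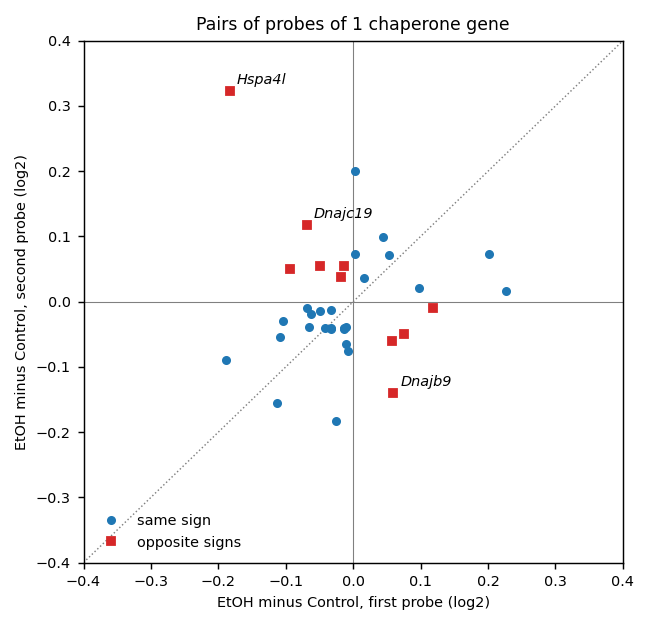
Difference between EtOH and Control (log2) on the second probe against the first for 36 pairs of probes of 23 chaperone genes, with squares for the 10 pairs of opposite sign and a dotted line where both are equal. The Hspa4l pair, at -0.18 and 0.32, lies farthest from the line.

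Wider lists of the folding pathways, read from the brightest probe of each gene, gave 0 calls by limma in each list. They also hold members counted above, 13 of the 19 measured heat-inducible genes and 5 of the 17 of the endoplasmic reticulum. Counts of higher and lower genes follow differences adjusted for chip, and are not read as a shift of a list. Plain means had the opposite sign for several genes. Among these were Bag3 and Fkbp4 of the heat-inducible list and Calr, Pdia3 and Sdf2l1 of the endoplasmic reticulum. Of 19 measured heat-inducible genes 3 were higher and 16 lower in EtOH, with a median difference of -0.03, against 0.00 (0.0025) for all probes. Of 17 measured genes of folding in the endoplasmic reticulum 6 were higher and 11 lower, with a median of -0.03. Its members with the smallest p were the stress factors Atf4, at 0.11, and Xbp1, at -0.10. The plain means of Atf4 were 11.39 ± 0.22 in EtOH and 11.41 ± 0.24 in Control (SD, n = 6 each), and it was higher on chip 2 by 0.41 (adjusted p for chip 0.028 by limma). The list of heat shock factors and their partners had 3 of 6 genes measured, Hsf2, Hsf4 and Hsbp1. Hsf1, Hsf5 and Hsf2bp were not measured here, so nothing is said of them. Hsf2 ran from 6.62 to 7.20 in EtOH (median 7.08) and from 7.17 to 7.64 in Control (median 7.25). No EtOH array lay above the Control median, the ranges overlapped slightly, and the difference was -0.25 (-0.49 to -0.01; unadjusted p 0.0391, adjusted p 1.00 by limma). Hsf4 differed by 0.15 and Hsbp1, which binds heat shock factor, by -0.03.

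Of 14 Hsp70 exchange factors 4 were higher and 10 lower, with a median of -0.06, and 4 of the 14 are members counted above. Bag2 ran from 5.03 to 5.51 in EtOH (median 5.15) and from 5.29 to 5.93 in Control (median 5.64). It was detected on 2 EtOH and 6 Control arrays, so it was kept through Control, where it was higher, and most EtOH values lay at background. Its difference is therefore not read as a measured size, and limma did not call it (adjusted p 1.00). The 23 measured Hsp90 co-chaperones had 11 higher and 12 lower, with Sgtb at 0.18, Aarsd1 at 0.10 and Ppp5c at -0.08. The cytosolic chaperonin had 7 of 8 subunits higher, with a median of 0.01, from Cct3 at -0.02 to Cct2, detected on 7 arrays, at 0.14.

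Prefoldin had 2 of 5 measured subunits higher, with Vbp1 at -0.07, Pfdn2 at -0.08 and Pfdn5 at 0.05. The 14 mitochondrial chaperones and proteases had 5 higher and 9 lower, with Clpb, a disaggregase, at -0.16 and Timm44 of the import motor at -0.07. Of these 14, 6 are members counted above. Sec63 and Gak, J proteins of other names, differed by -0.09 and -0.02, and Cryab, a small heat shock protein, by -0.04.

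No covariation across arrays passed the test in either response. Hspa5 lay near background and was detected on 7 of 12 arrays, so low correlations with it say little about the genes of the endoplasmic reticulum. Hsph1 was correlated with 18 other heat-inducible genes over 12 arrays, of which 10 had a positive r, with a median of 0.05. Hspa5 was correlated with 16 other genes of the endoplasmic reticulum, of which 11 had a positive r, with a median of 0.29. None of the 34 relations passed a permutation test after Benjamini-Hochberg adjustment. The smallest p belonged to Hsph1 and Chordc1, an Hsp90 co-chaperone, with Pearson's r of 0.61 (permutation p 0.0337, adjusted 0.733) and Spearman's rho of 0.62 (permutation p 0.0357, adjusted 0.637). Without the 2 arrays farthest from the Hsph1 median r was 0.80, and within the chips it was 0.77 and 0.72. Hsph1 and Dnajb1 had r = 0.44 and rho = 0.53 (permutation p 0.151 and 0.0828, adjusted 0.733 and 0.637). Their r was 0.84 without the 2 arrays, and 0.47 and 0.80 within the chips. Hspa5 and Sdf2l1 had r = 0.56 and rho = 0.58 (permutation p 0.0595 and 0.0513, adjusted 0.733 and 0.637), and r was 0.26 without the 2 arrays farthest from the Hspa5 median. Their r was 0.70 and 0.38 within the chips. With group and chip means taken out it was 0.53, or 0.65 without the 2 arrays then farthest from the Hspa5 median. The 2 arrays were picked anew in that setting, so the values without 2 arrays are not compared between settings. For Hsph1 and Chordc1 that setting gave 0.76 (adjusted permutation p 0.165), or 0.46 without the 2 arrays picked in it. Permutations exchanged all arrays freely, although arrays share groups and chips, so their p-values are approximate. Where means were taken out, the values are also no longer independent of each other, which can make p too small.

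**Figure D5:**
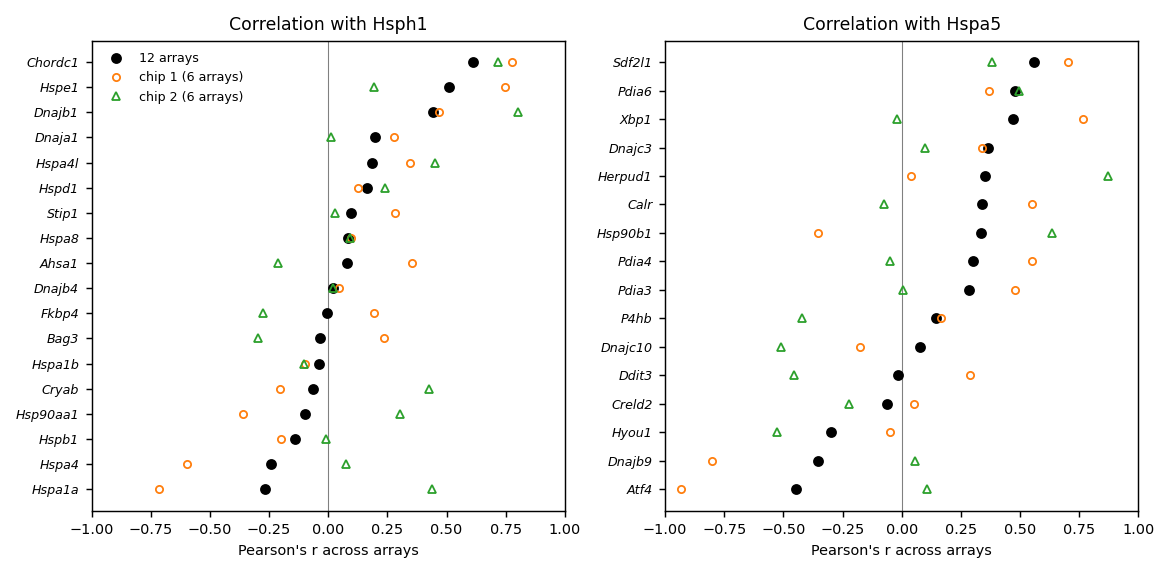
Pearson's r across arrays of Hsph1 with 18 heat-inducible genes (left) and of Hspa5 with 16 genes of the endoplasmic reticulum (right), over 12 arrays (filled) and within each chip of 6 (open). Values over 12 arrays run from -0.27 to 0.61 for Hsph1 and from -0.45 to 0.56 for Hspa5, and the chips often differ from each other.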

How the data were processed

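Probe intensity on a linear scale, not normalized, and a detection p-value per array were deposited by the authors, per the file headers. The submitters' processing notes name GenomeStudio 1.9.0. The authors' other table, of quantile-normalized intensity, was an alternative. The neqc function (limma 3.58.1, R 4.3.3, offset 16) corrected the background and normalized by quantiles. Probes with a detection p-value under 0.05 on at least 6 of 12 arrays were kept, which left 20172. Genes were named from the platform annotation, and current symbols changed 0 of the members. EtOH and Control were compared with limma (lmFit and eBayes, two-sided, chip as a fixed term), with Benjamini-Hochberg adjustment over all kept probes. Pairs of probes were tested as within-array differences in the same model, and correlations with 100000 permutations. Precision is limited by the number of arrays.

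The members and the gene lists were chosen with earlier results of these data known. Named members are up to 10 per direction with the smallest p, all Hspa4l probes, the 5 genes whose probes differ with the smallest p, the 3 probes of largest spread, those called for chip, a list of 19 well-known members and the 3 genes of each list with the smallest p. Genes named outside it, such as Hspbp1, Chordc1, Sdf2l1 or those with no kept probe, were chosen after their values were seen. Alternatives changed the background correction, normalization, filter, chip term and variance model, used array weights or a replicate block, and left out arrays. The fit was tested on simulated data.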

Additional observations from a re-analysis of the deposited data

Results flagged for a closer look

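In 3 of 104 groups of 6 arrays, an end value lay farther from its nearest neighbour than Dixon's 95% limit for the group's range. Chance gives about 1 in 20 such groups, so 3 of 104 is no excess. Hspb6 was named for its large spread within groups, so its flag is not independent of that choice. Hsph1 was lowest in EtOH 2, at 12.34 (12.3419) on the log2 scale, against 12.53 in the next EtOH array. Dnaja2 on probe ILMN_3003324 was highest in Control 3, at 6.80 (6.79551), against 6.36 in the next Control array. Hspb6 was highest in Control 2, at 10.35 (10.3503), against 9.63 in the next Control array, Control 4. EtOH 2, Control 2 and Control 4 are among the 4 arrays with high Ttr. Control 3 is not, and EtOH 4, which is, had the highest Hsph1 value of the EtOH arrays, at 12.59.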

How the results depend on the processing

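Over all alternatives run, limma called 0 probes between EtOH and Control, with a lowest adjusted p of 0.0709 without Control 2. At an unadjusted p under 0.05 limma gave 1 of 82 chaperone probes, against 702 of all 20172 probes. Without a detection filter it gave 5 of 135, against 1913 of 45281. On chip 2 alone it gave 3 of 82, against 825 of 20172. With a replicate block the counts were 4 of 82 and 917 of 20172. Without the 4 arrays with high Ttr they were 3 of 82 and 731 of 20172. Leaving out each array in turn gave 1 to 3 chaperone probes, against 604 to 919 of all 20172 probes. Chaperone probes called for chip numbered 1, against 5 without background correction, 2 with offset 50, 5 in the authors' processed table, 0 without a filter, 4 where every array had to pass a detection p of 0.01, and 5 with a trended and robust variance. They numbered 0 with array weights, with the replicate block and without the 4 arrays, and 0 without each array in turn. In the main fit 0.773% of all probes were called for chip, and their share under the alternatives is not given here. The causes were not tested. Over all probes, 702 passed an unadjusted p of 0.05, against 458 with the stricter filter, 1913 with none, and 917 with the replicate block. With median scaling 42.6% of these were higher in EtOH, against 50.4%. Same-numbered arrays had deviations that correlated from -0.13 to 0.24, and 2 of 12 arrays correlated best with their own number, so the numbers were taken as names. Of 1343 values of 52 named probes under 26 alternatives, 89 changed sign and 0 passed the threshold, and 26 probes kept their sign throughout. For Hspa4l, ILMN_1240779 ranged from 0.15 to 0.42 and ILMN_1230843 from -0.41 to 0.04.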
